A study of Homo sapiens with 9 samples.

Results

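The cytosolic ribosomal protein genes encode the proteins of the large (RPL and RPLP) and small (RPS) subunits of the ribosome outside mitochondria. They were taken by symbol alone: RPL or RPS followed by a number and at most an A, X, L, AL or L1 ending, together with RPLP0, RPLP1, RPLP2 and RPSA. This rule found 85 of the 18143 listed genes, 53 of the large and 32 of the small subunit, of which 8 are paralogs marked by an L, L1 or AL ending. FAU, which encodes a ribosomal protein fused to a ubiquitin-like protein, is not taken by the pattern and is given for comparison only. RNA was taken from the lung adenocarcinoma line A549 at 48 h of transfection with a scrambled siRNA (Scramble) or with SiREV1#1 or SiREV1#2, siRNAs that target different sites of REV1. REV1 is a Y-family polymerase that acts in translesion DNA synthesis. No genotype other than that of the line was labelled, every group received siRNA, and no untransfected cells were included. Each of the 3 groups had 3 replicates, so 9 libraries were compared, all from 1 cell line. The labels give no separate cultures for the replicates, and p-values therefore measure only the spread between these libraries, which may be technical.

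A cytosolic ribosome holds 1 copy of most of these proteins, the stalk proteins RPLP1 and RPLP2 being the known exceptions. Their messenger RNAs are among the most abundant of a growing cell and mostly begin with a run of pyrimidines, the 5′ terminal oligopyrimidine (TOP) motif, through which mTOR signalling controls their translation. Proteins made in excess of their partners are degraded.

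A siRNA guide pairs with its target along its whole length, and bases 2 to 8 of the guide, the seed, are also known to pair with other messenger RNAs. The 7-base match to the seed is CAGGAAT for SiREV1#1 and GGACGAC for SiREV1#2, searched on the sense strand of 1 GENCODE 29 transcript per gene. The sites below are the target sites in REV1, the matches in 5 ribosomal protein genes picked from those lower after the siRNA of that match, and that in RPL35. RPL26, RPS26 and RPL35 did not pass the test. Lower genes with a match that are not printed include RPL4 and RPL7L1. The printed sites were picked after the values were seen. Each is written 5′ to 3′ as DNA letters with the seed match in capitals.
REV1 site of SiREV1#1: gaacagtgacgCAGGAATaaat
RPL26: ttgagaagatgCAGGAATaaag
RPL26L1: ttgagaaaatgCAGGAATaaat
RPS26: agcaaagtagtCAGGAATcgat
REV1 site of SiREV1#2: gcatcaaagctGGACGACtcct
RPS28: gtggaattcatGGACGACacga
RPS25: atgccgcctaaGGACGACaaga
RPL35: ctgaaacagctGGACGACctga

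On GRCh38, REV1 occupies chromosome 2 from 99400475 to 99490035, on the minus strand. The seed match in its SiREV1#1 target site lies at 99404475 to 99404481 in exon 18 of 23 of REV1-201, and that of SiREV1#2 at 99442453 to 99442459 in exon 5, both in the coding sequence. Exon 18 holds a further CAGGAAT at 99404547 to 99404553, outside the target site. RPL26 is on the minus strand of chromosome 17 (8377516 to 8383250) and RPL26L1 on the plus strand of chromosome 5 (172958729 to 172969771). In both, the match is in exon 4 of 4 and reaches the stop codon, and an unbroken run of 9 of the 19 bases of the SiREV1#1 site is shared with REV1. RPS26 is on the plus strand of chromosome 12 (56041351 to 56044697), with its match in coding exon 4 of 5. RPS28 is on the plus strand of chromosome 19 (8321158 to 8323340), with its match in coding exon 3 of 4 of RPS28-203. RPS25 is on the minus strand of chromosome 11 (119015712 to 119018691), with its match in coding exon 2 of 5. A match is a description of the letters and was not tested as a site.

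Depth was between 13059082 counts (SiREV1#1 replicate 1) and 20166451 counts per library, and the least expressed ribosomal protein gene above 1 FPKM still held 79 counts in the shallowest library. REV1 measured 7.23, 7.90 and 8.44 FPKM in Scramble replicates 1, 2 and 3, and 2.60, 2.92 and 3.36 FPKM after SiREV1#1. After SiREV1#2 it measured 3.62, 3.36 and 3.18 FPKM. REV1 thus fell with both siRNAs, by 1.16 (SE 0.11, limma adjusted p = 0.00069) and by 1.01 (SE 0.11, limma adjusted p = 0.0022) on the log2(FPKM + 1) scale. FPKM scales the fragments of a gene by transcript length and by the fragments of the library. In every group replicate 1 lay apart from replicates 2 and 3 over all genes, so each siRNA library was compared with the Scramble library of the same replicate number. Of 9 genes listed as lung epithelial or A549 markers, 8 had a mean over 1 FPKM, against 0 of 6 fibroblast markers, 0 of 3 endothelial markers and 1 of 3 listed immune markers (CD14).

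Ribosomal protein mRNAs made up 14.8% to 18.9% of all summed FPKM. The share was 16.6%, 18.9% and 17.6% in Scramble replicates 1, 2 and 3, then 14.8%, 18.8% and 18.6% after SiREV1#1, and 17.9%, 17.3% and 17.8% after SiREV1#2. The groups overlapped, and the lowest share was that of SiREV1#1 replicate 1, the shallowest library. A share of RNA cannot tell fewer ribosomal protein transcripts from more of other RNA. Of the 85 genes, 83 had a mean above 1 FPKM and entered the tests. The paralogs RPL3L, known from striated muscle, and RPL10L, known from testis, stayed at or below 0.09 FPKM in every library and were not tested.

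Levels differed widely between the 83 genes. The mean FPKM over the 9 libraries was highest for RPS2 (3535), a small subunit protein at the mRNA entry, for RPLP1 (3445), a stalk protein, and for RPL41 (3175), the smallest protein of the large subunit. The median gene measured 882 FPKM, against 11.5 FPKM for the median of all tested genes, and 54 of the 100 most abundant genes were ribosomal protein genes. The lowest means were those of 3 paralogs, RPL39L (19.7), RPL22L1 (26.2) and RPL26L1 (30.4), and RPL7L1 (55.9) came next. Their parent genes were far higher per length, with means of 1022 FPKM for RPL39, 188 for RPL22, 1454 for RPL26 and 1203 for RPL7. The paralogs RPS27L (210) and RPL36AL (391) were also below RPS27 (2130) and RPL36A (709).

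**Figure D1:**
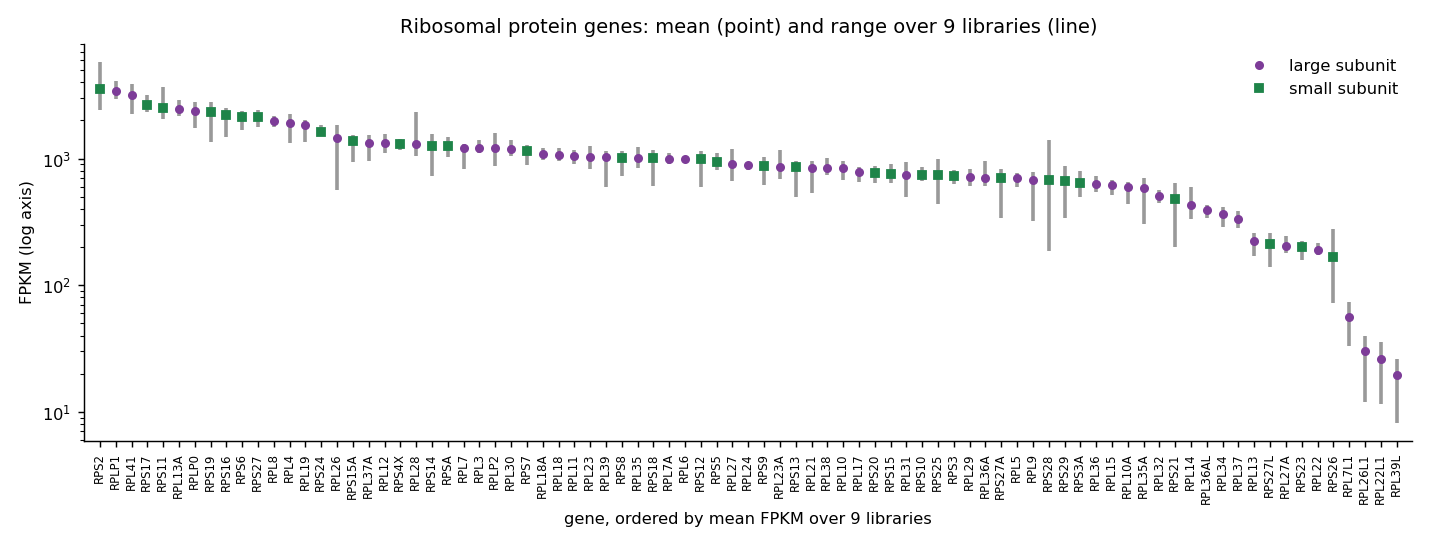
Mean FPKM (points, log axis) and the range over 9 libraries (lines) of the 83 ribosomal protein genes with a mean over 1 FPKM, ordered by mean. RPS2, RPLP1 and RPL41 are highest, and the 4 lowest are the paralogs RPL7L1, RPL26L1, RPL22L1 and RPL39L.

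The start of most of these genes carried a pyrimidine run of the TOP kind. A RefSeq start window (GRCh38.p14) was found for 67 of the 83 genes, and the longest run of C and T beginning within 10 bases of the annotated start was measured. A run of at least 8 was present in 51 of the 67 genes (76.1%), against 12.3% of 9416 tested genes with a window. The median run was 11 bases, against 4. Among the paralogs, RPL36AL had a run of 13 and RPL22L1 of 10, whereas RPL26L1 and RPS27L had 3 and RPL7L1 had 2. The run is a description of letters and was not tested as a control element.

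Most ribosomal protein genes did not pass the test with either siRNA. After SiREV1#1, 3 of the 83 passed (3.61%), whereas 19.7% of all 11429 tested genes did. RPS28 rose, and RPL26L1 and RPL39L fell, against 6.26% of all genes that rose and 13.4% that fell. After SiREV1#2, RPS28 and RPS25 fell and no member rose, so 2 of 83 passed (2.41%) against 11.3% of all genes, of which 3.81% rose and 7.49% fell. By limma, the same 2 were the only members with an unadjusted p under 0.05 (2.41%), against 28.0% of all tested genes. Both comparisons share the Scramble libraries. Without the replicate block, 1 gene passed with each siRNA, against a background of 1.36% for SiREV1#1 and 0.577% for SiREV1#2.

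The median difference of the 83 genes on the log2(FPKM + 1) scale was -0.04 for SiREV1#1, against -0.07 for all tested genes, and became 0.07 when libraries were scaled to equal medians of the other genes. For SiREV1#2 it was 0.02, against 0.00 for all tested genes. The same-numbered pairs did not share a direction. For SiREV1#1 the pair medians of the 83 genes were -0.19, 0.02 and 0.14 for replicates 1, 2 and 3. Of the 83 genes, 24, 47 and 71 were higher than Scramble. Over all 11429 tested genes the pair medians were -0.18, -0.03 and -0.02, with 3958, 5334 and 5473 genes higher. For SiREV1#2 the pair medians of the 83 genes were 0.19, -0.17 and 0.05, with 76, 5 and 57 higher. Over all tested genes they were -0.04, 0.00 and 0.02, with 5065, 5747 and 5933 higher. The 76 genes other than RPS28, RPS25, RPS2, RPL26, RPL26L1, RPL39L and RPS26 lay between -0.47 (RPL22L1) and 0.43 (RPL28) after SiREV1#1, and between -0.29 (RPS27L) and 0.19 (RPL21) after SiREV1#2. These 7 were set aside after their values were seen.

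**Figure D2:**
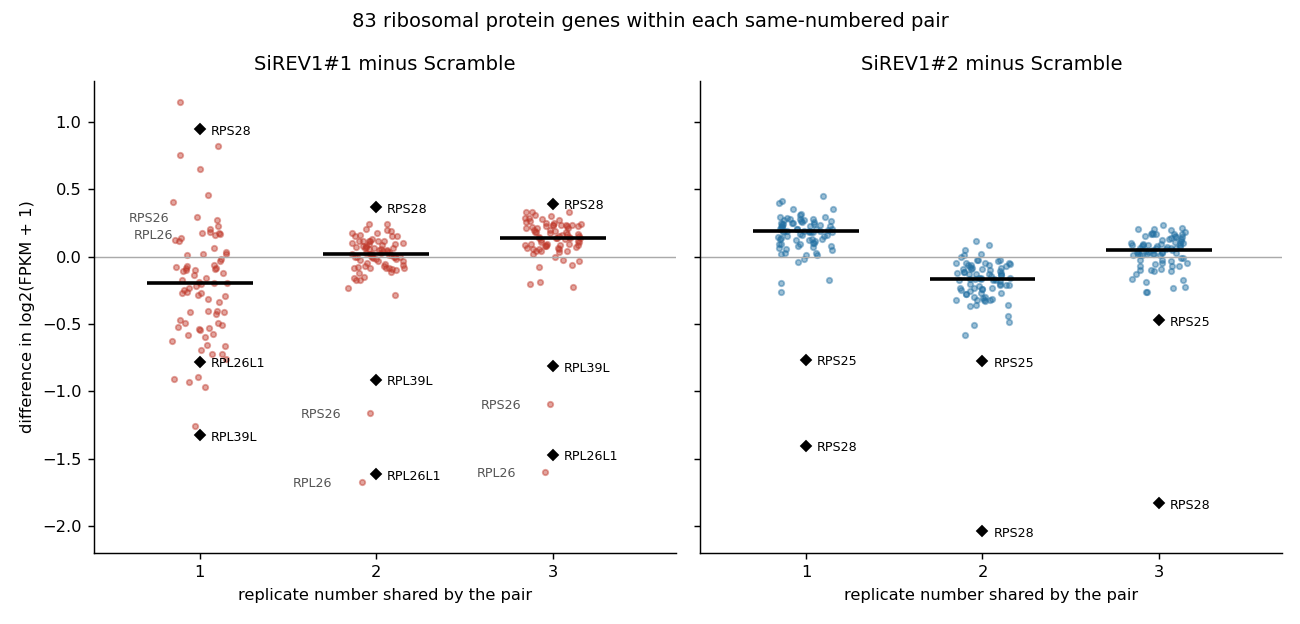
Difference in log2(FPKM + 1) between each siRNA library and the Scramble library of the same replicate number for 83 ribosomal protein genes (points), with the median of each pair as a line. Black diamonds are genes with a limma adjusted p under 0.05, and RPL26 and RPS26 are labelled in grey. The bulk of the genes shifts up or down together by pair, while RPS28 and RPS25 after SiREV1#2 lie below it in every pair. RPL26L1 after SiREV1#1 lies below it in pairs 2 and 3, and within the wider spread of pair 1 (-0.78).

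RPS28, a protein of the head of the small subunit, moved in opposite directions with the 2 siRNAs. It measured 723, 770 and 663 FPKM in Scramble replicates 1, 2 and 3, 1394, 993 and 871 FPKM after SiREV1#1, and 272, 186 and 186 FPKM after SiREV1#2. The groups did not overlap, and each SiREV1#2 library lay below its Scramble pair. RPS28 fell by 1.76 (SE 0.15, limma adjusted p = 0.00078) on the log2 scale after SiREV1#2, from a mean of 719 ± 53.8 to 215 ± 49.7 FPKM (SD, n = 3). The rise after SiREV1#1 was 0.57 (SE 0.15, limma adjusted p = 0.031), to 1086 ± 274 FPKM (SD, n = 3). The fall passed in 20 of 21 alternative analyses and the rise in 10 of 21, the rise being lost without the replicate block (adjusted p = 0.33).

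RPS25, another protein of the small subunit head, known to be needed for translation from several viral internal entry sites, fell with SiREV1#2. It measured 750, 861 and 746 FPKM in Scramble replicates 1, 2 and 3, and 441, 502 and 537 FPKM after SiREV1#2. After SiREV1#1 it measured 995, 933 and 878 FPKM. The SiREV1#2 libraries were the lowest 3 of the 9 and the SiREV1#1 libraries the highest 3. The fall was 0.67 on the log2 scale (log2 difference -0.67, SE 0.13, limma adjusted p = 0.015), and the SiREV1#1 difference of 0.25 (SE 0.13, limma adjusted p = 0.20) did not pass. Without the replicate block the SiREV1#2 difference of RPS25 also missed the threshold (adjusted p = 0.078). The fall of RPS25 passed in 13 of 21 alternatives.

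RPL26L1 is the paralog of RPL26, which sits beside the exit of the peptide tunnel. RPL26L1 measured 38.8, 38.4 and 35.6 FPKM in Scramble replicates 1, 2 and 3, and 22.1, 11.9 and 12.2 FPKM after SiREV1#1. After SiREV1#2 it measured 38.3, 36.8 and 39.8 FPKM, overlapping Scramble. It fell after SiREV1#1 by 1.29 on the log2 scale (SE 0.18, limma adjusted p = 0.0027), in 3 of 3 pairs, and also passed without the replicate block (adjusted p = 0.041). The differences of its pairs were -0.78, -1.62 and -1.47.

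RPL26 differed between the SiREV1#1 replicates. It measured 1487, 1834 and 1727 FPKM in Scramble replicates 1, 2 and 3, and 1732, 1725 and 1765 FPKM after SiREV1#2. After SiREV1#1 it measured 1677, 575 and 569 FPKM, so that replicate 1 lay within the Scramble range and replicates 2 and 3 far below it. REV1 itself was at 2.60 FPKM in that replicate 1 library, the lowest of the 9. Over all 3 pairs the RPL26 difference was -1.03 (SE 0.34, limma adjusted p = 0.068), which did not pass. With replicates 2 and 3 only it was -1.64 (limma adjusted p = 5.9e-08), in a fit that 54.5% of all tested genes passed. Replicate 1 was left out there with its values known. The RPL26 difference passed in 3 of 21 alternatives.

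RPS26, a small subunit protein beside the mRNA exit, had a like pattern and is named here because its replicate 1 values stood farthest above the rest. It measured 224, 170 and 157 FPKM in Scramble replicates 1, 2 and 3, 275, 75.8 and 72.8 FPKM after SiREV1#1, and 249, 136 and 137 FPKM after SiREV1#2. The SiREV1#1 difference was -0.65 (SE 0.26, limma adjusted p = 0.12) over all 3 pairs and -1.13 (limma adjusted p = 2.6e-07) with replicates 2 and 3 only. It passed in 2 of 21 alternatives, and the fit of replicates 2 and 3 has the limits given for RPL26. In replicate 1 the SiREV1#1 library was above its Scramble pair, and in replicates 2 and 3 it was below.

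RPL39L, the paralog of the tunnel protein RPL39 and known mainly from testis, fell after SiREV1#1. It measured 22.1, 25.6 and 23.1 FPKM in Scramble replicates 1, 2 and 3, 8.20, 13.1 and 12.7 FPKM after SiREV1#1, and 21.5, 24.7 and 26.1 FPKM after SiREV1#2. The SiREV1#1 libraries were the lowest 3 of the 9. RPL39L fell by 1.02 on the log2 scale (SE 0.12, limma adjusted p = 0.0016), in 3 of 3 pairs, and without the replicate block its adjusted p was 0.051. The transcript examined for RPL39L holds no CAGGAAT, though it holds GGACGAC, the match of the other siRNA. RPL39 itself differed by -0.17 (SE 0.20, limma adjusted p = 0.59).

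**Figure D3:**
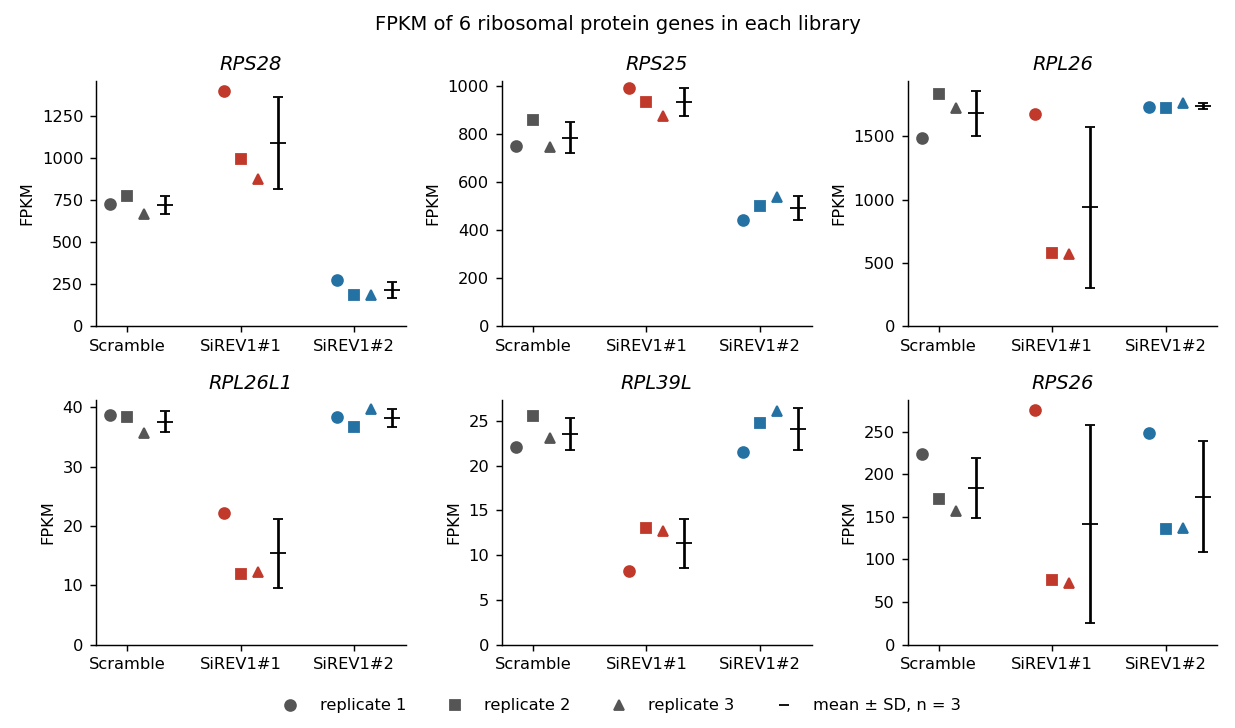
FPKM of RPS28, RPS25, RPL26, RPL26L1, RPL39L and RPS26 in each library, by group and replicate (symbols), with mean ± SD (n = 3) in black; every axis starts at 0. After SiREV1#1, RPL26 and RPS26 are low in replicates 2 and 3 (569 to 575 and 72.8 to 75.8 FPKM) but not in replicate 1.

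The siRNAs were also compared directly. Between SiREV1#1 and SiREV1#2, 6 of the 83 genes differed (7.23%), against 36.5% of all tested genes (15.3% higher and 21.1% lower after SiREV1#1), and 4 differed without the replicate block (background 5.21%). RPS28 was higher after SiREV1#1 by 2.33 (SE 0.15, limma adjusted p = 6.3e-05), RPS25 by 0.92 (SE 0.13, limma adjusted p = 0.0013) and RPS2 by 0.53 (SE 0.16, limma adjusted p = 0.036). RPL26L1 was lower after SiREV1#1, at -1.32 (SE 0.18, limma adjusted p = 0.0013), as were RPL26 at -1.09 (SE 0.34, limma adjusted p = 0.038) and RPL39L at -1.05 (SE 0.12, limma adjusted p = 0.00071). Of these 6 genes, the 3 higher belong to the small and the 3 lower to the large subunit. The median differences of all large and all small subunit members were -0.01 and -0.03, so the split was not seen over the subunits as a whole. RPS2 measured 3432, 3436 and 3040 FPKM in Scramble replicates 1, 2 and 3, 5792, 3572 and 3609 FPKM after SiREV1#1, and 3919, 2416 and 2601 FPKM after SiREV1#2. Its groups overlapped, with the difference carried by the pairs, and RPL26 and RPS2 did not pass without the block (adjusted p = 0.16 and 0.28).

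The ratio of summed large to small subunit FPKM was 1.29 to 1.34 in the Scramble libraries, 1.24 to 1.25 after SiREV1#1 and 1.36 to 1.37 after SiREV1#2, so the groups did not overlap. With the 7 genes named above left out it was 1.42 to 1.50, 1.42 to 1.56 and 1.44 to 1.50, and the groups overlapped. The ratio was given no test, since these genes were known when it was formed.

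Seed matches were then set beside the differences. CAGGAAT was present in the transcripts of 9 of the 83 genes (10.8%), against 28.8% of 11286 tested genes with a transcript, and GGACGAC in 8 of 83 (9.64%), against 11.5%. The median transcript was 1004 bases for the ribosomal protein genes and 3099 bases for all. The transcript examined was not checked against the one expressed, so a gene counted here may lack the match in its expressed mRNA. The matches of RPL14, RPL28 and RPL32 lie in the 3′ untranslated regions of transcripts of 7072, 4796 and 2117 bases. Of the 9 genes with CAGGAAT, 1 fell after SiREV1#1, RPL26L1, against 21.4% of the 3250 tested genes with that word other than REV1. RPL26 and RPS26, described above, also hold it, and the other six, RPL14, RPL28, RPL32, RPL4, RPL7L1 and RPSA, differed by -0.21 to 0.43, none past the threshold. Of the 8 genes with GGACGAC, 2 fell after SiREV1#2, RPS28 and RPS25, against 29.7% of the 1292 tested genes with that word other than REV1.

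The other six genes with GGACGAC, RPL26L1, RPL28, RPL31, RPL35, RPL39L and RPLP2, differed by -0.10 to 0.09 after SiREV1#2, none past the threshold. RPL35 shares an unbroken run of 11 of the 19 bases of the SiREV1#2 site, the longest found among these genes, and differed by -0.10 (SE 0.13, limma adjusted p = 0.69). RPS28 shares a run of 8 and RPS25 of 7.

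**Figure D4:**
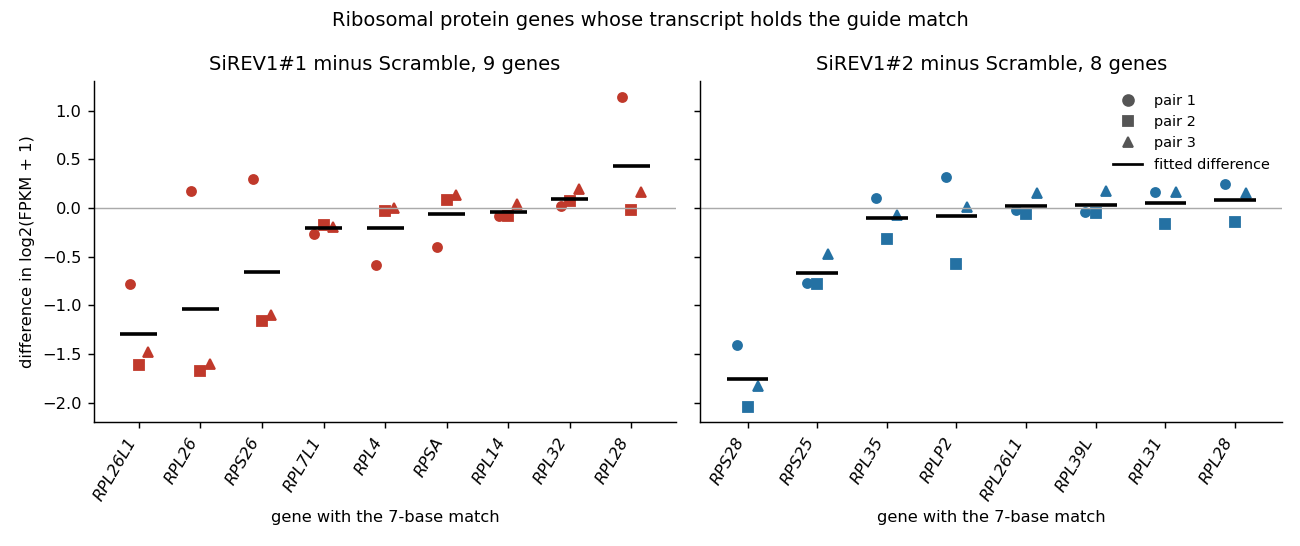
Difference in log2(FPKM + 1) from Scramble in each same-numbered pair (symbols) and from the limma fit (lines) for the ribosomal protein genes whose transcript holds the 7-base match, 9 for SiREV1#1 and 8 for SiREV1#2. RPL26L1, RPL26 and RPS26 on the left and RPS28 and RPS25 on the right lie lowest, with pair 1 above 0 for RPL26 and RPS26.

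The remaining paralogs and FAU gave no call. RPL22L1, paralog of RPL22, measured 22.3, 35.5 and 33.5 FPKM in Scramble replicates 1, 2 and 3, 11.6, 28.96 and 28.6 FPKM after SiREV1#1, and 19.7, 27.5 and 28.3 FPKM after SiREV1#2. Each siRNA library was below its Scramble pair, by -0.47 (SE 0.16, limma adjusted p = 0.080) for SiREV1#1 and -0.26 (SE 0.16, limma adjusted p = 0.36) for SiREV1#2. RPS27L differed by -0.17 and -0.29 (limma adjusted p = 0.41 and 0.20), RPL36AL by -0.03 and -0.00 (limma adjusted p = 0.88 and 0.99) and RPL7L1 by -0.21 and 0.02 (limma adjusted p = 0.21 and 0.93). FAU measured 247 to 447 FPKM over the 9 libraries, with differences of -0.17 and 0.06, neither past the threshold.

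Other gene groups of ribosome production were read from lists chosen by function. Of 29 ribosome biogenesis factors, 5 fell after SiREV1#1 (17.2%) and 6 after SiREV1#2 (20.7%), and none rose, beside 13.4% and 7.49% of all tested genes that fell. Their median differences were -0.20 and -0.15. The genes that fell were not shared between the siRNAs. After SiREV1#1 they were GAR1 (-0.65, limma adjusted p = 0.018), NOB1, RRN3, NOP58 and GNL3, and after SiREV1#2 NOC2L (-2.46, limma adjusted p = 0.0021), PES1, BOP1, NCL, UBTF and DKC1. PES1 and BOP1 act together in large subunit maturation, and UBTF is a factor of RNA polymerase I.

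Of 17 translation factors and other genes with known TOP mRNAs, 2 fell with each siRNA (11.8%) and none rose, beside the same 13.4% and 7.49% of all tested genes. EEF2, the elongation factor that moves the ribosome along, fell with both, by 0.47 (limma adjusted p = 0.044) and 0.65 (limma adjusted p = 0.021) on the log2 scale. EIF3E fell after SiREV1#1 (log2 difference -1.51, limma adjusted p = 0.0015) and EEF1D after SiREV1#2 (log2 difference -2.55, limma adjusted p = 0.015). Of 18 regulators of ribosomal protein synthesis, 16.7% passed after SiREV1#1 and 11.1% after SiREV1#2, beside 19.7% and 11.3% of all tested genes. EIF4E, the cap-binding factor, ZNF622 and GRWD1 fell after SiREV1#1, RPTOR, a subunit of mTOR complex 1, fell after SiREV1#2, and EIF4EBP2, an inhibitor of EIF4E, rose after SiREV1#2. Of 78 mitochondrial ribosomal proteins, which build a separate ribosome, 8 fell after SiREV1#1 (10.3%) and 4 after SiREV1#2 (5.13%), below the 13.4% and 7.49% of all tested genes that fell, with MRPL19 (-1.30, limma adjusted p = 0.00027) and MRPS6 (-1.61, limma adjusted p = 0.0035) among them. Without the replicate block, the genes of these lists that passed against Scramble were MRPL19 and MRPS18C for SiREV1#1 and MRPS6 and NOC2L for SiREV1#2.

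Replicate 1 was also compared with replicates 2 and 3, as a description without a test, because this replicate was singled out with its values known. The 3 replicate 1 libraries lay entirely above or below the other 6 for 13 of the 83 genes (15.7%), 4 above and 9 below, against 46.2% of all tested genes (18.2% above and 28.0% below). The shift had the same sign in all 3 groups for 23 of 83 genes (27.7%), against 72.0%. Replicate 1 differed over 2-fold from replicates 2 and 3 averaged for 0 genes in Scramble, 10 after SiREV1#1 and 1 after SiREV1#2, against 16.7%, 20.3% and 23.0% of all tested genes. Replicates 2 and 3 differed by at most 1.25-fold for any ribosomal protein gene in any group.

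The shift itself depended on the group. Its median over the 83 genes was -0.08 in Scramble, -0.33 after SiREV1#1 and 0.16 after SiREV1#2. The SDs over these genes were 0.20, 0.58 and 0.28. Over all tested genes the medians were -0.04, -0.20 and -0.08, and the SDs were larger at 0.78, 0.82 and 0.91. The genes that stood lowest in replicate 1 were RPL7L1 (mean shift over groups -0.86), RPL22L1 (-0.78), RPL35A (-0.56) and RPS27A (-0.54), the latter a ubiquitin fusion. Those that stood highest were RPS26 (1.06), RPL14 (0.58), RPS2 (0.47) and RPL23A (0.43). RPL7L1, known to act in ribosome assembly, measured 39.9, 66.4 and 66.6 FPKM in Scramble replicates 1, 2 and 3, 33.02, 58.9 and 58.2 FPKM after SiREV1#1, and 34.7, 71.9 and 73.9 FPKM after SiREV1#2. All 3 of its replicate 1 values were below the other 6.

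**Figure D5:**
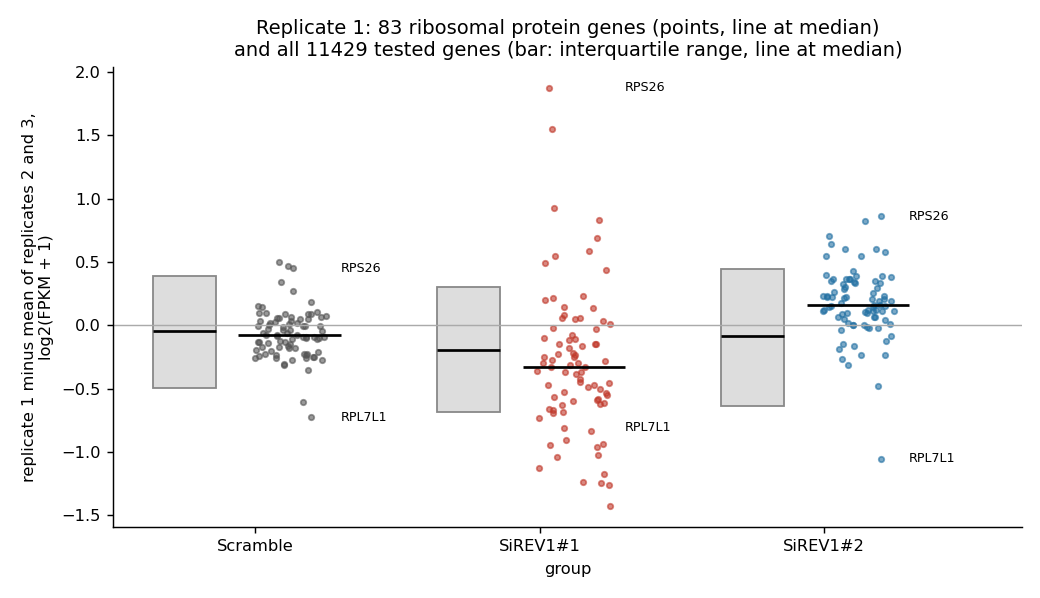
Replicate 1 minus the mean of replicates 2 and 3 in log2(FPKM + 1) for 83 ribosomal protein genes in each group (points, line at the median), beside the interquartile range of all 11429 tested genes (grey bar, line at the median). The points spread least in Scramble and most after SiREV1#1, and RPS26 is high and RPL7L1 low in all 3 groups.

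With replicates 2 and 3 only, more of the genes passed, as did more of all genes. After SiREV1#1, 15 ribosomal protein genes rose and 7 fell, 26.5% in all, against 54.5% of all tested genes (24.8% rose and 29.7% fell). After SiREV1#2 none rose and 14 fell, 16.9%, against 53.2% of all tested genes (25.9% fell). Apart from RPL26, RPL26L1, RPS26, RPL39L and RPS28 after SiREV1#1 and RPS28 and RPS25 after SiREV1#2, these differences with replicates 2 and 3 only were from 0.15 to 0.37 in size on the log2 scale. In this comparison the Scramble libraries themselves differed between replicates 2 and 3 by a median of 0.15 over the 83 genes. Without SiREV1#1 replicate 1 alone, 8, 4 and 15 of the 83 genes passed in the comparisons of SiREV1#1, of SiREV1#2 and between the siRNAs, against 37.2%, 33.3% and 52.5% of all tested genes.

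Reads of these genes can be shared with processed pseudogenes and paralogs, and how the authors' counting assigned them is not given in the sources used here. Of the 50-base words of the transcript examined, 69.4% recur in transcripts of other genes for RPS2, 47.9% for RPL26L1, 39.3% for RPL26, 27.6% for RPS25, 27.2% for RPS26, 12.6% for RPS28 and 2.55% for RPL39L. These shares are of the transcripts examined, of 1326 bases for RPS28 and 835 for RPS25, which were not checked against those expressed. The share of reads affected may therefore differ. The strand setting of the counting was not given either, so overlapping antisense transcripts cannot be told apart.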

How the data were processed

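RNA-seq (poly(A) selected, random-primed, BGISEQ-500) of 9 A549 libraries was analysed. Per the labels, the submitters' processing notes name StringTie 1.3.3b and genome build hg38. The aligner and the roles of these tools are not given in the sources used here. The authors deposited FPKM values, already scaled by length and depth, and estimated counts per gene without normalization. Of these expected counts, deposited by the authors, 42.6% are not whole, and they were rounded for the tests on counts. The deposited counts of SiREV1#2 replicate 3 repeat those of its replicate 2 (100% of genes), so they were used once, and counts have 8 libraries where FPKM has 9.

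Genes with a mean FPKM over 1 (11429) were tested on log2(FPKM + 1) with limma 3.58.1 (limma-trend, R 4.3.3), a model of 3 groups with the replicate number as a block, two-sided, with Benjamini-Hochberg adjustment over all genes and a threshold of 0.05. A fold change on this scale understates that of low genes. Residual degrees of freedom were 4. The numbers pair the libraries by their deviations from the group means: the correlation of same-numbered libraries was 0.73 to 0.93 over 9 pairs. This rests on replicate 1, since the differences between replicates 2 and 3 correlated at -0.22 to 0.18 between groups. Alternatives were no replicate block, a pseudocount of 0.1, no filter and a mean FPKM over 10. FPKM was also rescaled to equal sums or to equal medians of the other genes. On counts, edgeR 4.0.16 (TMM with and without block, upper quartile) and DESeq2 1.42.0 were used. Further alternatives were replicates 2 and 3 only and each library left out. A block of replicate 1 against the rest was added after seeing the data, which makes up to 21 alternatives per gene. An adjusted p under 0.01 was applied only to the number of genes called. It is not among the 21, so the counts of alternatives passed all use the threshold of 0.05. Fits were tested on simulated data. Python 3.11.15 with numpy 2.4.6, pandas 2.3.3 and matplotlib 3.10.9 did the rest.

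The members, gene lists and tests were chosen with earlier results of these data known. Genes named by rule are REV1, FAU, the 3 highest and 3 lowest members above 1 FPKM, the paralogs and their parents, up to 5 passing members per comparison changed alike in 3 of 3 pairs, and the 4 members farthest up or down in replicate 1. A further gene named by the rule is not reported here. Other names were chosen after values were seen. Sequences are from GENCODE 29 (GRCh38), 1 transcript per gene, and start windows (250 bases before to 50 after) from RefSeq GRCh38.p14. Words were searched on the sense strand only. The seed words come from the siRNA sequences in the study's methods.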

Additional observations from a re-analysis of the deposited data

Results flagged for a closer look

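For 6 ribosomal protein genes the effects of the siRNAs differed in the direct test of SiREV1#1 against SiREV1#2. These are 7.23% of the 83 tested members, against 36.5% of all tested genes. The difference on the log2(FPKM + 1) scale was 2.33 for RPS28, 0.92 for RPS25 and 0.53 for RPS2, with limma adjusted p of 6.3e-05, 0.0013 and 0.036. It was -1.32 for RPL26L1, -1.09 for RPL26 and -1.05 for RPL39L, with limma adjusted p of 0.0013, 0.038 and 0.00071. The direction was the same in 3 of 3 pairs for each, though the RPL26 difference was only -0.05 in pair 1. Of 21 alternatives, RPS28 passed in 21, RPS25, RPL26L1 and RPL39L in 20 each, RPS2 in 10 and RPL26 in 8. REV1 itself differed by -0.15 between the siRNAs (limma adjusted p = 0.32).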

How the results depend on the processing

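The number of ribosomal protein genes called after SiREV1#1 (3) was 1 with no replicate block, 5 with replicate 1 against the rest as the block, 0 with edgeR without block (3 at an unadjusted p under 0.05) and 22 with replicates 2 and 3 only. That after SiREV1#2 (2) was 1 with no replicate block, with edgeR with the block, with edgeR upper quartile scaling and at an adjusted p under 0.01, 0 with edgeR without block (2 at an unadjusted p under 0.05) and 14 with replicates 2 and 3 only. That between the siRNAs (6) was 1 with edgeR without block and 44 with replicates 2 and 3 only (53.0%, against 68.9% of all tested genes). For settings whose share over all tested genes is not given, the counts describe the processing only. Leaving out 1 library gave 2 to 8, 1 to 4 and 4 to 15 genes. SiREV1#1 replicate 1 gave the highest counts when left out, 8, 4 and 15, and SiREV1#2 replicate 1 gave 10 in the direct comparison. The count after SiREV1#2 was 1 without Scramble replicate 2 or 3 or SiREV1#2 replicate 2 or 3.

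The number of genes with replicate 1 apart from the other 6 libraries (13) was 27 with FPKM rescaled to equal sums and up to 28 with 1 library left out, that of SiREV1#2 replicate 1. The share over all tested genes was 46.2% without these changes and is not given with them. The higher counts are therefore not read as a trait of the ribosomal protein genes. REV1 after SiREV1#2 was -1.33 with edgeR without block (adjusted p = 0.15). The causes were not tested. Of the differences of named genes other than REV1 under alternatives, 1550 kept their side of the threshold, 50 lost it, 38 gained it and 0 reversed a call. The 1550 include differences that passed in neither setting, so they do not measure how stable the calls were. The block changed no other call of a named gene than those given. Between the siRNAs, 3 genes were higher and 3 lower. Scaling to equal medians gave 4 and 2. Counts for SiREV1#2 come from 2 libraries, and SiREV1#1 replicate 1 has the least depth.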

Other observations

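The ribosomal protein genes were also compared between replicates 2 and 3 within each group. The median of replicate 2 minus replicate 3 over the 83 genes was 0.15 in Scramble, 0.04 after SiREV1#1 and -0.05 after SiREV1#2. These values are on the log2(FPKM + 1) scale, with SDs over genes of 0.07, 0.06 and 0.05. Over all tested genes the medians of this difference were -0.001, -0.006 and 0.004, and the SDs 0.15, 0.12 and 0.11. In Scramble this difference was correlated with the GC content of the transcript at r = 0.57 across the 83 genes (0.46 across 11286 tested genes). After SiREV1#1 r was 0.23 and after SiREV1#2 it was -0.16 (0.12 and -0.21 across the 11286 tested genes). Genes of 1 library share its depth and base composition, and these values are a description.

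Across the 83 genes, the replicate 1 shift correlated with GC content at 0.06 in Scramble, 0.15 after SiREV1#1 and 0.27 after SiREV1#2. Across 11286 tested genes these correlations were 0.13, 0.21 and 0.27. The correlation with transcript length was between -0.11 and 0.02 across the 83 genes. The 27 ribosomal protein genes of lowest GC content (40.6% to 47.4%) had median shifts of -0.13, -0.45 and 0.10, and the 28 of highest (52.0% to 64.6%) of -0.08, -0.25 and 0.26.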
